A study of Mus musculus with 10 samples.

Results

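The small heat shock genes Hspb1, Hspb2, Hspb3, Hspb6, Hspb7, Hspb8 and Cryab, together with Bag3 and the clusterin gene Clu, were examined in RNA-seq of young and old mouse aortae. They were chosen by gene symbol, and all 9 were found among the 55453 symbols of the count table. The study compared whole aortae of 5 young male C57BL/6 mice, aged 14.5 weeks, with those of 5 old male C57BL/6 mice, aged 92.5 weeks in the sample labels, with 1 library per mouse, and the labels name no treatment or genetic change in either group. The vessels were taken from saline-perfused mice, were freed of the fat around them, and came from young and old animals killed at the same time.

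Small heat shock proteins share an alpha-crystallin domain, work without ATP, and hold unfolding proteins in a form that other chaperones can refold or that the cell can degrade. In smooth and striated muscle they are abundant and associate with actin, intermediate filaments and the Z-disc. BAG3 joins HSPB8 to the HSP70 machine and passes damaged filamin and other clients to selective autophagy, whereas clusterin is secreted and acts as a chaperone outside the cell.

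Of the 9 genes, 8 were detected in every library and passed the filter on low counts, and 1, Hspb3, had no count in any of them. Total counts per library ranged from 19640401 to 22886153, and the 9 genes together took 0.228 to 0.335% of the counts in young and 0.211 to 0.257% in old aortae. Smooth muscle markers were abundant in all libraries. Young 1 held the highest sum of adipocyte markers, with 38089 normalized counts against 6391 to 19855 in the other mice. Young 2 held the highest sum of skeletal muscle markers, with 1620.1 normalized counts against 247 to 402 in the others, and in old 2 mitochondrial genes took 11.0% of the counts against 4.50 to 6.51%. Old 3 held the highest sums of macrophage and lymphocyte markers, 11937 and 308 normalized counts. Young 1, young 2 and old 2 were left out together as an alternative, each for the highest value of 1 of the first 3 measures and not by an outlier test, and old 3 was left out only alone. Values without them are given where a call changed. A normalized count is a gene's count divided by the DESeq2 size factor of its library. Because whole vessels were sequenced, fewer cells of a type and less RNA per cell cannot be told apart.

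Hspb1, Hspb6, Hspb8, Bag3 and Clu were lower in old aortae, and none of the 8 tested genes was higher. Hspb1 fell by 47.7% and Bag3 fell by 46.0%, while Hspb8 fell by 30.3%, Hspb6 fell by 24.7% and Clu fell by 16.5%. Cryab, Hspb2 and Hspb7 did not pass the test. A gene was called at a Benjamini-Hochberg adjusted p below 0.05 in the edgeR quasi-likelihood test over all 14614 genes that passed the filter. Among these, 4.99% were called lower and 6.48% higher in old aortae, whereas 5 of the 8 tested genes described here were called lower. The paper had already named Hspb1, Hspb8, Bag3 and Clu as downregulated in the same mice. The median log2 fold change was -0.33 over the 8 genes and 0.00 over all genes tested. In 4 of the 8 (Hspb6, Hspb8, Bag3 and Clu) every old aorta lay below every young one, which was so for 4.55% of all genes tested. The number called lower ranged from 2 to 6 when single mice were left out: it was 2 without young 4, and 3 without old 2, old 3 or old 5. It was 4 when young 1, young 2 and old 2 were left out together.

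**Figure D1:**
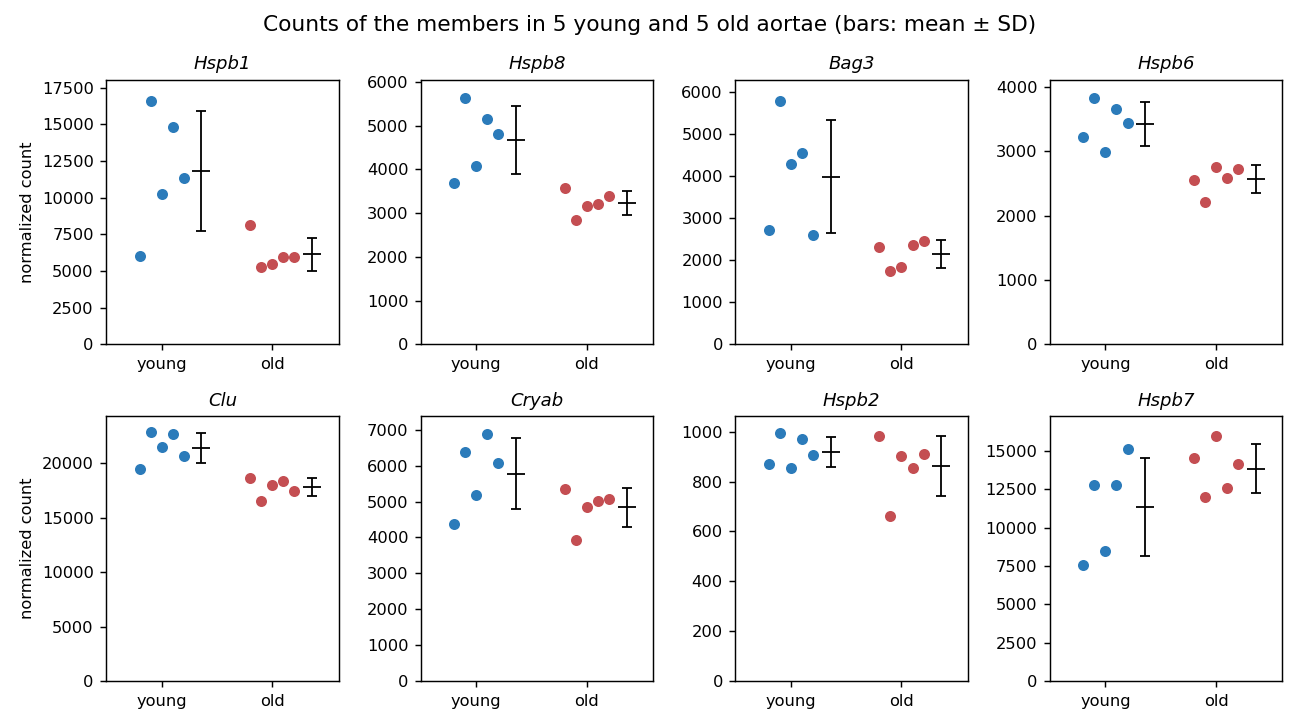
Normalized counts (y axis, from 0) of the 8 detected genes in each of 5 young (blue) and 5 old (red) aortae, with black bars for the mean ± SD of each group. The old points of Hspb8, Bag3, Hspb6 and Clu all lie below the young points, whereas those of Hspb1, Cryab, Hspb2 and Hspb7 overlap with them.

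Hspb1 encodes HSP27 (HSP25 in mice), which binds actin and is induced by heat and oxidative stress. The gene lies on chromosome 5 at chr5:135887919-135889563 of GRCm38, plus strand, and its normalized counts in young 1 to 5 were 6051, 16605, 10247, 14790.1 and 11343. In old 1 to 5 they were 8103, 5238, 5487, 5948 and 5916. Young aortae varied widely, with young 2 and young 4 the highest, and the groups overlapped because young 1 fell below old 1. The young mean was 11807 ± 4114 and the old mean 6138 ± 1138 (SD, n = 5 each). The log2 fold change was -0.94 ± 0.24 (SE), with an edgeR adjusted p of 0.0336. This call was lost without young 2, young 4, young 5, old 2, old 3, old 4 or old 5, each left out alone, with log2 fold changes from -1.10 to -0.78 over all 10 such fits and an adjusted p of up to 0.0828. It was also lost without the low-count filter (log2 fold change -0.94, adjusted p = 0.0971) and with a block for the replicate number (-0.88, adjusted p = 0.157). It held without young 1, young 2 and old 2 together, at -0.93 and an adjusted p of 0.0120. Of the 50-base windows of the Hspb1 transcripts, 50.1% also occur in the pseudogenes Hsp25-ps1 and Gm9817. Hsp25-ps1 held 10.2 to 43.5 normalized counts and Gm9817 held none, against 5238 to 16605 for Hspb1. Few reads were thus counted for the pseudogenes. Reads with several alignments may have been left out of the Hspb1 counts, since their treatment is not stated.

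Hspb8 and Bag3 form the complex that hands clients to autophagy, and both were lower in old aortae. Hspb8, on chromosome 5 at chr5:116408491-116422864, minus strand, had normalized counts of 3686, 5625, 4087, 5157 and 4799 in young 1 to 5. In old 1 to 5 they were 3574, 2852, 3159, 3214 and 3381. The groups did not overlap, although young 1 lay close above old 1. The means were 4671 ± 786 and 3236 ± 269 (SD, n = 5 each), with a log2 fold change of -0.52 ± 0.11 (SE) and an edgeR adjusted p of 0.00731. Hspb8 stayed called in all 20 alternative fits.

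Bag3, on chromosome 7 at chr7:128523616-128546981, plus strand, had normalized counts of 2716, 5787, 4276, 4543 and 2606 in young 1 to 5. In old 1 to 5 the values were 2307, 1740.2, 1831, 2363 and 2462. All old aortae lay below all young ones, but young 1 and young 5 were much nearer to the old range than the other 3 young mice. The means were 3986 ± 1338 and 2141 ± 330.3 (SD, n = 5 each), and the log2 fold change was -0.89 ± 0.22 (SE) with an edgeR adjusted p of 0.0279. The call was lost without young 3, young 4, old 2 or old 3, at log2 fold changes of -0.86 to -0.83 and adjusted p of 0.0534 to 0.0711, and without the low-count filter (-0.89, adjusted p = 0.0825). Without young 1, young 2 and old 2 together the log2 fold change was -0.76 and the adjusted p 0.0518. With a block for the replicate number the call was lost too (-0.84, adjusted p = 0.130).

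The ratio of Hspb8 to Bag3 counts within a library needs no scaling between libraries. It was 1.36, 0.972, 0.956, 1.13 and 1.84 in young 1 to 5, and 1.55, 1.64, 1.72, 1.36 and 1.37 in old 1 to 5. Young 5 had the highest ratio of all mice and young 2 and young 3 the lowest. The geometric mean was 1.25 times as high in old as in young aortae, and the difference did not pass the exact two-sided permutation test (p = 0.111, where 5 against 5 mice cannot give less than 0.00794). Without young 5 it was 1.39 times as high and passed (exact p = 0.00794), so the outcome rested on 1 mouse.

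Hspb6 encodes HSP20, a target of cyclic nucleotide-dependent kinases that is tied to smooth muscle relaxation. The gene, on chromosome 7 at chr7:30552178-30555443, plus strand, had normalized counts of 3224, 3839, 2986, 3659 and 3438 in young 1 to 5. In old 1 to 5 they were 2562, 2213, 2759, 2579.9 and 2726. The groups did not overlap, with young 3 the lowest of the young and old 3 the highest of the old mice. The means were 3429 ± 339 and 2568 ± 216 (SD, n = 5 each). The log2 fold change was -0.41 ± 0.08 (SE) with an edgeR adjusted p of 0.00499, and the gene stayed called in all 20 alternative fits. Hspb6 had the smallest p of the 8 genes, although its fold change was less than that of Hspb1, Bag3 or Hspb8, and its coefficients of variation between mice were 9.88% in young and 8.43% in old aortae, against 34.8 and 18.5% for Hspb1.

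Clu, on chromosome 14 at chr14:65968483-65981547, plus strand, encodes clusterin, which binds misfolded proteins outside the cell and lipoprotein receptors. Its normalized counts were 19510, 22846, 21500.1, 22676 and 20649 in young 1 to 5 and 18631, 16538, 18046, 18349 and 17474 in old 1 to 5. The highest old value, in old 1, lay below the lowest young value, in young 1. The means were 21436 ± 1402 and 17808 ± 829 (SD, n = 5 each), and the log2 fold change was -0.26 ± 0.06 (SE) with an edgeR adjusted p of 0.0201. The call was lost without young 4 (log2 fold change -0.24, adjusted p = 0.0620) and without old 5 (log2 fold change -0.25, adjusted p = 0.0509), and it held without young 1, young 2 and old 2 together (log2 fold change -0.25, adjusted p = 0.0356). A block for the replicate number also ended the call (log2 fold change -0.26, adjusted p = 0.0833).

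Cryab and Hspb2 are neighbours on chromosome 9 and are transcribed in opposite directions. Cryab encodes alpha B-crystallin, a chaperone of desmin and other filaments, and Hspb2 encodes a muscle small heat shock protein that binds the myotonic dystrophy kinase. In the annotation, Cryab (chr9:50751325-50756636, plus strand) and Hspb2 (chr9:50751078-50752354, minus strand) share a span of 1030 bases, and 17.0% of the Cryab and 30.2% of the Hspb2 exonic sequence overlaps the other gene. The sources used here do not state whether strand was used in the counting, so reads of the overlap may have been assigned to either gene or to none.

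The normalized counts of Cryab were 4384, 6389, 5181, 6875 and 6081 in young 1 to 5 and 5340.4, 3919.6, 4844, 5025 and 5060.5 in old 1 to 5. Young 1 and young 3 lay within the old range, and old 2 was the lowest of all mice. The means were 5782 ± 996 and 4838 ± 543 (SD, n = 5 each), with a log2 fold change of -0.25 ± 0.12 (SE) that did not pass the test (edgeR adjusted p = 0.197). Without young 1, the library rich in adipocyte markers, it was -0.34 and passed (adjusted p = 0.0325), and without young 1, young 2 and old 2 together it was -0.25 and did not (adjusted p = 0.0999). Hspb2 had 870.0, 994, 853, 970.5 and 908 normalized counts in young 1 to 5 and 984, 664, 904, 854 and 911 in old 1 to 5. Apart from old 2, all old mice lay within the young range. Its means were 919 ± 61.5 and 863 ± 121 (SD, n = 5 each), and its log2 fold change of -0.08 ± 0.09 (SE) did not pass the test (edgeR adjusted p = 0.622). The value rested on old 2, since it was -0.01 without old 2 and 0.01 without young 1, young 2 and old 2 together.

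The ratio of Cryab to Hspb2 counts within a library, not corrected for length, was 5.04, 6.43, 6.07, 7.08 and 6.70 in young 1 to 5 and 5.43, 5.91, 5.36, 5.88 and 5.55 in old 1 to 5. Young 1 had the lowest ratio, and the other 4 young mice lay above all old mice. The geometric mean in old aortae was 0.903 times that in young ones, a difference that did not pass the exact two-sided permutation test (p = 0.135). Without young 1 it was 0.857 times and passed (exact p = 0.00794), so that this outcome too rested on 1 mouse.

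Hspb7, known as the cardiovascular small heat shock protein, was the only tested gene of the 8 with a positive fold change. The gene lies on chromosome 4 at chr4:141420779-141425311, plus strand. Its normalized counts were 7563, 12789.7, 8489, 12803 and 15143 in young 1 to 5 and 14532, 11986, 16016, 12562 and 14182 in old 1 to 5. Young 1 and young 3 were low, whereas the other 3 young mice lay within the old range. The means were 11357 ± 3205 and 13856 ± 1612 (SD, n = 5 each). The log2 fold change of 0.30 ± 0.18 (SE) did not pass the test (edgeR adjusted p = 0.322) or any of the 20 alternatives, where it ranged from 0.18 to 0.42.

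Hspb3, whose protein pairs with HSPB2 in muscle, had 0 counts in all 10 libraries. A count of 0 allows for up to 3 counts in a library, or 0.131 to 0.153 CPM, a limit that covers counting error only. Hspb3 could not be tested for a difference with age. Of the other small heat shock genes, Cryaa had no count in any library, Hspb9 and Odf1 had at most 2 and 4 counts in a library, and Hspb11, which encodes an intraflagellar transport protein, had normalized counts of 173 ± 8.35 (SD, n = 5) when young and 147 ± 13.8 when old. Hspb11 was the only one of these 4 tested, and its log2 fold change of -0.23 ± 0.10 (SE) did not pass (edgeR adjusted p = 0.157).

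**Figure D2:**
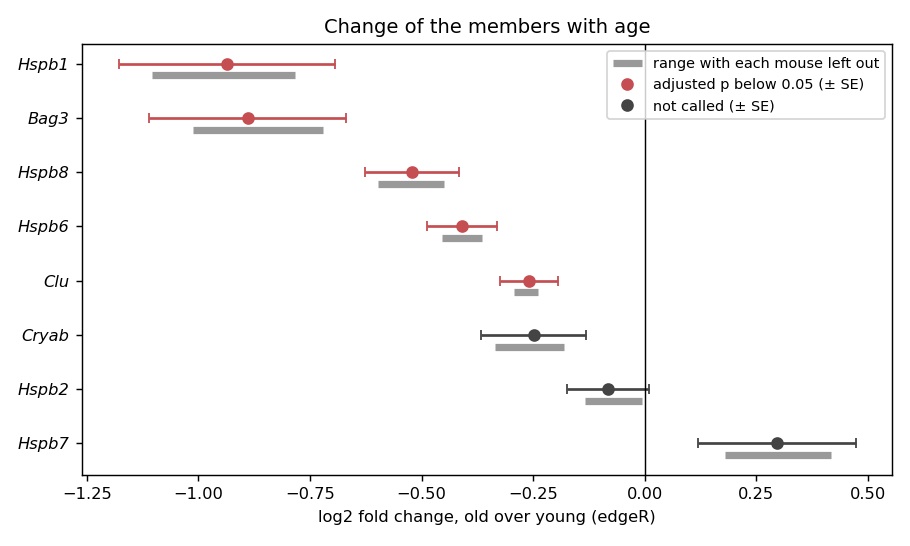
Log2 fold change of old over young aortae (x axis) for the 8 tested genes, with points and thin bars for the edgeR estimate ± SE, red where the adjusted p was below 0.05, and gray bars for the range of the estimate when each mouse in turn was left out. The ranges of Hspb1 and Bag3 are the widest of the 5 genes called lower, and that of Hspb7 lies on the positive side of 0.

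Per kilobase of exonic length, Hspb1 had the highest level of the 8 detected genes in both groups, with 11452 ± 3990.2 in the young and 5954 ± 1104 in the old mice (normalized counts per kilobase, SD, n = 5 each). The length is that of all annotated exons of a gene together, since the transcripts expressed were not determined, and the order between genes depends on it. Without division by length, Clu had the highest mean in both groups, 21436 in young and 17808 in old aortae, against 11807 and 6138 for Hspb1. In young aortae Clu followed with 6237 ± 408, then Hspb7 with 4102 ± 1158, Cryab with 3909 ± 673, Hspb8 with 2395 ± 403, Bag3 with 1556 ± 522, Hspb6 with 1492 ± 147 and Hspb2 with 1102 ± 73.7. The ranges over young mice overlapped between the neighbours Hspb1 and Clu, Hspb7 and Cryab, Hspb8 and Bag3, and Bag3 and Hspb6. Within libraries, however, Hspb1 lay above Clu and Hspb8 above Bag3 in all 5 young mice, whereas Hspb7 lay above Cryab in 2 and Bag3 above Hspb6 in 3 of 5, so that only the latter pairs had no common order. In old aortae Hspb1, Clu (5181 ± 241) and Hspb7 (5004 ± 582) overlapped as neighbours at the top, and Hspb6 (1117 ± 94.2), Hspb2 (1035 ± 145) and Bag3 (836 ± 129) did so at the bottom. Within libraries Hspb1 lay above Clu in all 5 old mice, Clu above Hspb7 in 3, Hspb6 above Hspb2 in 4 and Hspb2 above Bag3 in all 5. By its mean, Bag3 stood sixth among the young and last among the old aortae.

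**Figure D3:**
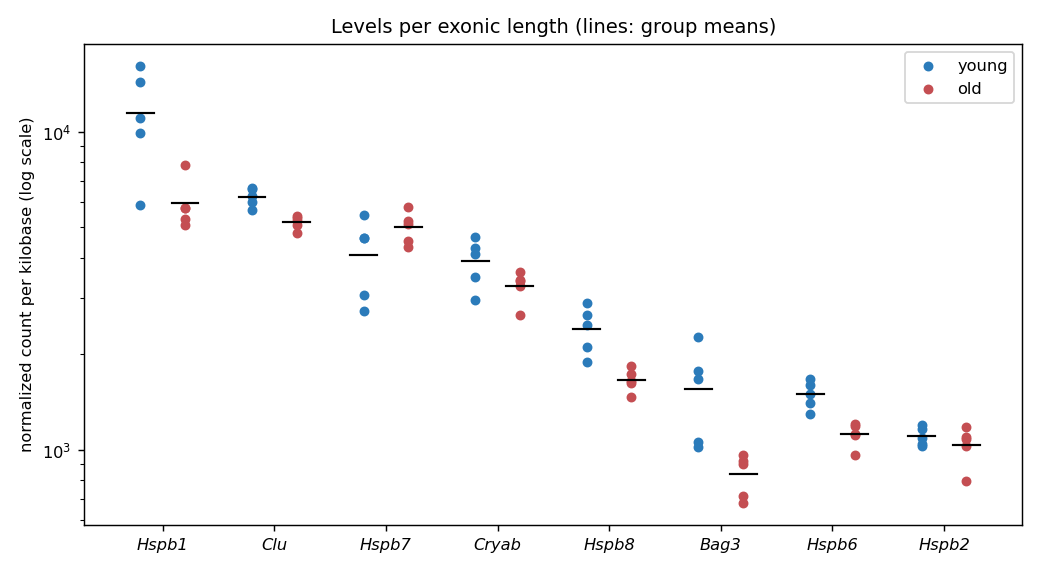
Normalized counts per kilobase of exonic length (y axis, log scale) of the 8 detected genes in 5 young (blue) and 5 old (red) aortae, with lines at the group means and genes ordered by their young mean. The old points of Hspb1 overlap those of Clu and Hspb7, and the old mean of Bag3 lies below that of Hspb2, and the points of these genes overlap.

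The same mice tended to be high or low for many of these genes. Old 2 had the lowest value among old mice in all 8 genes, old 1 the highest in 5, young 1 the lowest among young mice in 5 and young 2 the highest in 6. After the group means were removed, all 28 pairs of genes had a positive Pearson r over the 10 mice, with a median of 0.715. Between mice of 1 age, the highest Pearson r was that of Hspb8 and Hspb1 (r = 0.935, exact permutation p = 0.000278, adjusted over the 28 pairs 0.00778, with Spearman rho = 0.939, adjusted exact p = 0.00486). Without the 2 mice farthest from the median of Hspb1, young 1 and young 2, r was 0.851. In each pair these 2 mice were chosen by the values of 1 of the 2 genes only. Hspb8 and Cryab gave r = 0.931 (exact permutation p = 0.00111, adjusted 0.0104) and rho = 0.976 (adjusted exact p = 0.00486), with r = 0.948 without young 1 and young 2. By rho, and by r without these mice, this pair was the closer of the 2. Hspb8 and Bag3, whose proteins form a complex, gave r = 0.659 (adjusted exact p = 0.153), and r was 0.263 without young 1 and young 2. The lowest value was that of Hspb7 and Bag3, at 0.142 (adjusted exact p = 0.742). It turned to -0.16 without young 1 and young 3, the 2 mice farthest from the median of Hspb7. An adjusted p below 0.05 was reached by 14 pairs with Pearson and 6 with Spearman correlation, but by only 4 pairs when counts were scaled by library size alone, although all 28 values of r stayed positive. All pairs share their libraries and scaling, and the labels name no batch within which the relation could be computed again. Summed smooth muscle markers were also lowest in old 2 among old mice (862911) and in young 1 among young mice (929128). They were highest in old 1 (1047820) among the old and in young 5 (1091000) and young 2 (1085120) among the young. Old 2 was also the library with 11.0% mitochondrial counts. Whether the relation between the genes follows these measures was not tested.

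**Figure D4:**
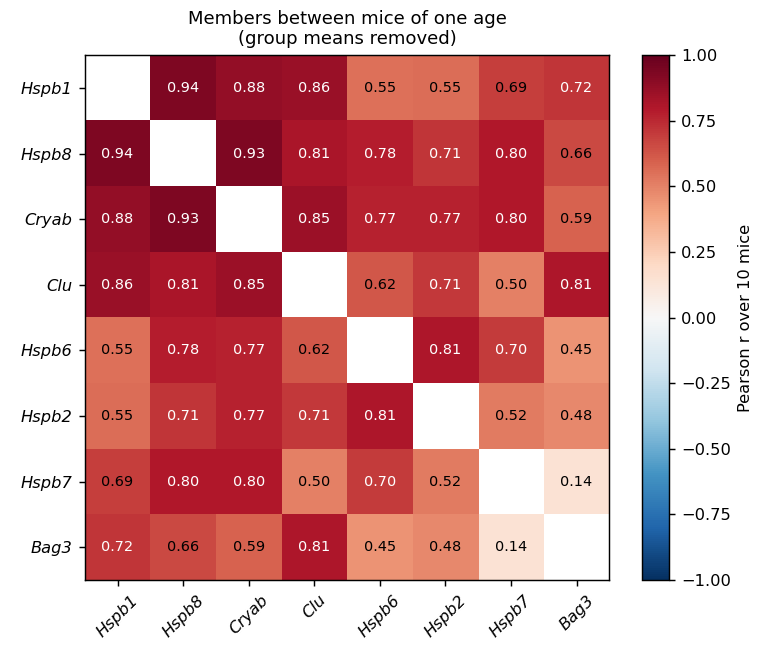
Pearson r (color scale and printed values) between each pair of the 8 detected genes over 10 mice, computed on log2 normalized counts after the mean of each age group was removed. Hspb1, Hspb8, Cryab and Clu have r of 0.81 or more with each other, and the palest cell is that of Hspb7 and Bag3.

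For each gene, the 3 other genes with the closest variation between mice were sought among all tested genes, with r from 0.938 to 0.989. Hspb1 varied most closely with P4ha1, a collagen prolyl hydroxylase, with Fxr1, and with Stip1, which bridges HSP70 and HSP90. The genes nearest to Hspb2 were Focad, Pgk1 and the smooth muscle light chain Myl9, those nearest to Hspb6 were Gm10645, Fxyd1 and the lamin gene Lmna, and those nearest to Hspb7 were Sec31a and Srp72, both of the secretory route, and Ptgis, the prostacyclin synthase. For Hspb8 they were Bpnt1, Ctr9 and Raly, for Cryab Tnfrsf12a, Cdca4 and Ube2f, for Bag3 Znfx1, Elf1 and Erlin1, and for Clu Rab9b, Ncapg2 and Urb2. Of these 24 genes, 1 was called with age, Bpnt1, at a log2 fold change of -0.31 ± 0.07 (SE) and an edgeR adjusted p of 0.0154. They were picked as the highest of many values, so no test is given.

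Heat shock factors switch on chaperone genes through repeats of the letters GAA and TTC. RefSeq promoters of GRCm38.p6, from 250 bases before to 50 bases from the start site, matched 6 of the 9 genes: Hspb1, Hspb3, Hspb6 with 2 windows, Hspb7, Hspb8 and Bag3. No window is given for Hspb2, Cryab and Clu. The windows of the genes called lower and of Hspb7 are printed 5′ to 3′ on the strand of the gene, with each match to GAANNTTC in capitals. For Hspb6 only the second of its 2 windows is shown, since the first held no match.
Hspb1, chr5:135887669-135887968, plus strand: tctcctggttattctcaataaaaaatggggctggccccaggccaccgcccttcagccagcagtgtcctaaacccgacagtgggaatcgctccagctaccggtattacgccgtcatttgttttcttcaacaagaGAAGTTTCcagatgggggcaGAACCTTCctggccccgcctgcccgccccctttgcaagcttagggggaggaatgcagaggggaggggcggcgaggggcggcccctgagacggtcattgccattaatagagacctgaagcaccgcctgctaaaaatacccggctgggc
Hspb8, chr5:116422815-116423114, minus strand: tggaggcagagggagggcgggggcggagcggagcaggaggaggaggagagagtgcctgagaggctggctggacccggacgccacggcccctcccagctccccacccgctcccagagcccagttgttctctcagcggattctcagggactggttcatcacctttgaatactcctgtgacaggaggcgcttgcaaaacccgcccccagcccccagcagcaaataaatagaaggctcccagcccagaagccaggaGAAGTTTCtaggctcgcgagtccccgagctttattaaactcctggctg
Bag3, chr7:128523333-128523632, plus strand: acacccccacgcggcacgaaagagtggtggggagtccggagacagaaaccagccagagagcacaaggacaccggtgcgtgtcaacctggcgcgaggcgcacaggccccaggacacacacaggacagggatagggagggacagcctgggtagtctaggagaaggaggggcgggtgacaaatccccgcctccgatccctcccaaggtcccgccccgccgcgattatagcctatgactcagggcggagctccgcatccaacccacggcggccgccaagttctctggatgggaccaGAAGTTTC
Hspb6, chr7:30553051-30553350, plus strand: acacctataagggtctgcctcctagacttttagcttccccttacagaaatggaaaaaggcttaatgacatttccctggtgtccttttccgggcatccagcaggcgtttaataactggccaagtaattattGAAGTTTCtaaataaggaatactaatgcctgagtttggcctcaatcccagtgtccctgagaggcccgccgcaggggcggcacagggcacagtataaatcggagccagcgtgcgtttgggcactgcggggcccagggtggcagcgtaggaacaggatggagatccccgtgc
Hspb7, chr4:141420529-141420828, plus strand: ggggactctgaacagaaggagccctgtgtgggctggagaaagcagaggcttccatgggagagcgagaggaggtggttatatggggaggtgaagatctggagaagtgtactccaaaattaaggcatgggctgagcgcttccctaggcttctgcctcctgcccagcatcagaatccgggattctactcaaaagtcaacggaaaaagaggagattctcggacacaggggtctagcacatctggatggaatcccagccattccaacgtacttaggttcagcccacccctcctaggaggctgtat
GAANNTTC reads the same on both strands, and it occurred in 7.86% of all 32851 windows of this length. It was found in all 4 of the called genes that had a window: at -117 and -97 from the start site in Hspb1, at 3 in Hspb8, at 43 in Bag3 and at -120 in Hspb6. The undetected Hspb3 also held it, at -224, and Hspb7 did not. In those 4 genes 1 match each had the letters GAAGTTTC, which either strand of 1.21% of all windows held. This motif was chosen after the windows had been read. The other order, TTCNNGAA, was in none of the 7 windows and in 8.52% of all, and the CArG box, which serum response factor binds in smooth muscle genes, was in none of them and in 1.63% of all. TATAAA, on either strand, was in the windows of Hspb3 and Hspb6 and in 13.6% of all. A match describes letters and does not show that a factor binds there.

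Heat shock factors are known to drive Hspb1, Hspb8, Cryab and Bag3 together with the inducible chaperones of the HSP70 and HSP40 families. Of 19 tested heat shock factors and targets, 8 were lower and 2 higher in old aortae, with a median log2 fold change of -0.63. Among all genes tested, 4.99% were lower and 6.48% higher. The paper had already named these 8 genes as downregulated in the same mice, and the list was drawn up with such results known. Their count is therefore a description and no independent support. Hspa1a and Hspa1b, the stress-inducible HSP70 genes, averaged 10309 ± 6245 and 11634 ± 7179 in the young mice and 1331 ± 819 and 1456 ± 1000.1 in the old (normalized counts, SD, n = 5 each). Their log2 fold changes were -2.95 ± 0.60 and -2.99 ± 0.62 (SE), with edgeR adjusted p of 0.0134 and 0.0145. Of their 50-base windows, 66.3% of Hspa1a and 62.3% of Hspa1b occur in other genes, chiefly in each other, so how their reads were divided is uncertain. The cochaperone gene Dnajb4 fell by 1.48 ± 0.26 on the log2 scale (SE, edgeR adjusted p = 0.00611), and Ier5, an activator of heat shock factor 1, fell by 0.98 ± 0.21 (adjusted p = 0.0133). Dnajb1, Hsp90aa1, Hspd1 and Hspe1 were lower too, and Hsf4 and the heme oxygenase gene Hmox1 were higher. Hsf4 was low in counts, with normalized means of 38.0 in young and 68.3 in old aortae. Its log2 fold change was 0.85 ± 0.23 (SE, edgeR adjusted p = 0.0317). Hsf1 and Hsf2 were not called, at -0.11 ± 0.10 and -0.22 ± 0.08 (SE, edgeR adjusted p = 0.541 and 0.119). The paper, which used DESeq2, reported no significant regulation of heat shock factors, unlike the call of Hsf4 here. The most abundant of the list, Hsp90ab1, had a log2 fold change of -0.35 ± 0.12 (SE) that did not pass (edgeR adjusted p = 0.0769).

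**Figure D5:**
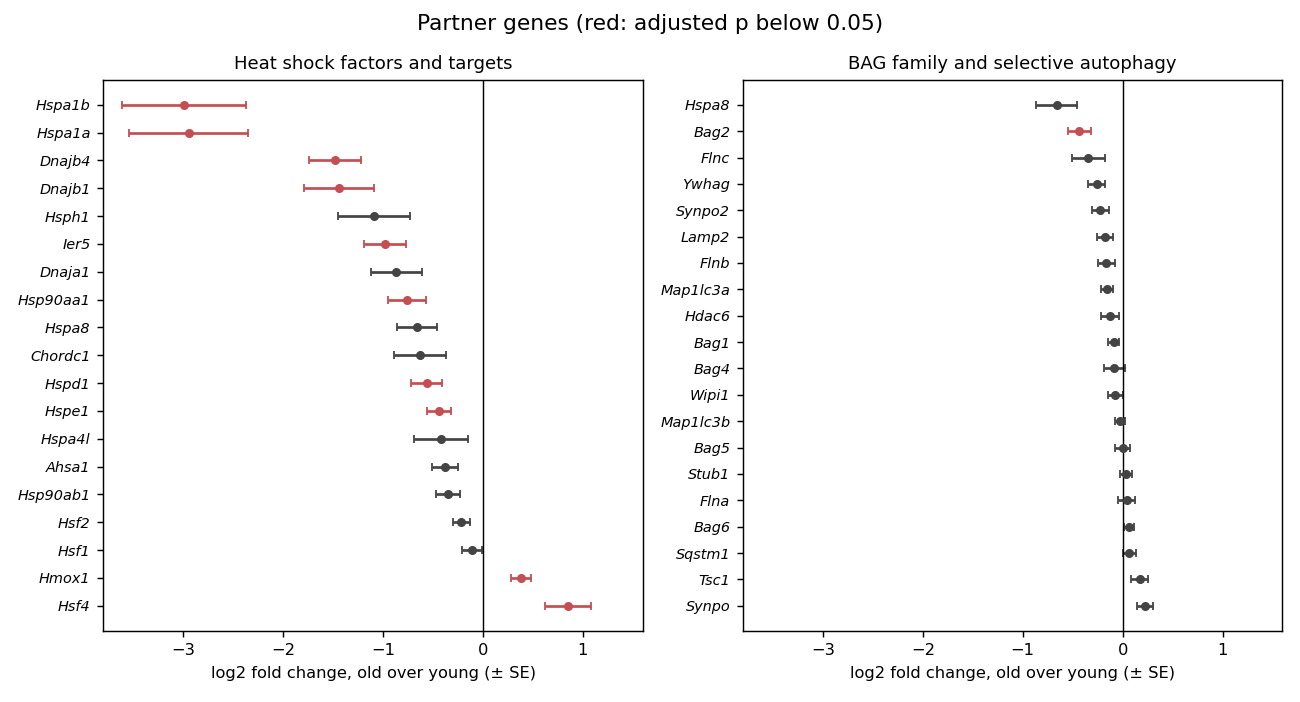
Log2 fold change ± SE (x axis) of old over young aortae for 19 heat shock factors and targets (left) and 20 genes of the BAG family and selective autophagy (right), red where the edgeR adjusted p was below 0.05. On the left 8 red points lie below 0 and 2 above, and on the right Bag2 is the only red point.

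The partners of BAG3 include the filamins, the ubiquitin ligase CHIP and the proteins that form autophagosomes. Of 20 tested genes of the BAG family and this route, 1 was lower, none was higher, and the median log2 fold change was -0.09. Since 4.99% of all genes tested were called lower, this count is near the share over all genes. The one lower gene, Bag2, whose protein regulates the ubiquitin ligase CHIP, averaged 561 ± 103 in the young mice and 413 ± 25.7 in the old (normalized counts, SD, n = 5 each), with a log2 fold change of -0.43 ± 0.12 (SE) and an edgeR adjusted p of 0.0288. Bag2 was already among the downregulated genes of the paper, in the same mice. Filamin A, the most abundant gene of the list and a client of BAG3, had a log2 fold change of 0.04 ± 0.09 (SE, edgeR adjusted p = 0.826).

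Small heat shock proteins attend intermediate filaments and the Z-disc. Of 13 tested intermediate filament and Z-disc genes, 1 was higher, none was lower, and the median log2 fold change was 0.05. Over all genes tested, 6.48% were higher and 4.99% lower. The nestin gene Nes rose from 5089.6 ± 501 to 7184 ± 1359 normalized counts (SD, n = 5 each), a log2 fold change of 0.51 ± 0.12 (SE) with an edgeR adjusted p of 0.0172, and Vim, the most abundant, had a log2 fold change of 0.05 ± 0.07 (adjusted p = 0.736).

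Among 10 tested extracellular chaperones, other secreted proteins and clusterin receptors, 3 were lower and 2 higher, with a median log2 fold change of -0.14. The shares over all genes tested were 4.99% lower and 6.48% higher. Sparc, a collagen chaperone and the most abundant of them, fell from 104513 ± 6325 to 53278 ± 9220.3 normalized counts (SD, n = 5 each), a log2 fold change of -0.96 ± 0.11 (SE) with an edgeR adjusted p of 0.00018. Sparc was already listed as downregulated in the paper, in the same mice. Fbln1 fell by 0.38 ± 0.10 on the log2 scale (SE, adjusted p = 0.0306), and Hp was also called lower. The receptor genes Lrp8 and Trem2 rose by 0.68 ± 0.14 and 1.44 ± 0.33 on the log2 scale (SE, adjusted p = 0.00837 and 0.0148). Macrophage marker sums were also higher in old aortae, and their part in the rise of Trem2 was not tested. Clusterin also restrains the membrane attack complex of complement. Of the terminal complement genes and inhibitors, 5 were tested and none was called, with a median log2 fold change of -0.21 and, for the most abundant, C7, of -0.23 ± 0.13 (SE, edgeR adjusted p = 0.293).

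Markers of cell types and of tissue handling were measured in the same libraries. The counts of called markers stand beside 4.99% called lower and 6.48% called higher over all genes tested. Summed smooth muscle markers ranged from 929128 to 1091000.0 in young and from 862911 to 1047820.0 in old aortae (normalized counts), with 1 of 9 called, Smtn, which was higher. Endothelial markers ranged from 20105 to 33709 in young and 11599 to 23409 in old aortae, with none of 7 called and a median log2 fold change of -0.60. Macrophage markers ranged from 4569 to 6096 in young and 6258 to 11937 in old aortae, and 4 of 6 were called higher. Lymphocyte markers ranged from 21.1 to 75.7 in young and 54.0 to 308 in old aortae, and 1 of 3 tested was higher. Adipocyte markers ranged from 11150 to 38089 in young and 6391 to 15806 in old aortae, adventitial fibroblast markers from 79545 to 87971 and from 76866 to 99705, and heart muscle markers from 2868 to 3960 and from 3686 to 4688. Of these, none of 9 adipocyte markers was called, 1 of 6 fibroblast markers was higher and 1 lower, and of 6 tested heart muscle markers 2 were higher and 1 lower. Most of the heart muscle sum came from Ryr2, which was called higher and averaged 2369 in young and 2760 in old aortae. Tnnt2 was the other higher gene and Actc1 the lower one. None of 7 tested skeletal muscle markers was called. Schwann cell markers ranged from 838 to 1646 in young and 1211 to 1448 in old aortae, 1 of 5 tested being higher, and mesothelial markers stayed below 35 in all mice. No marker on these lists was at 0 in all libraries. Immediate early genes, which respond within minutes to handling, summed to 19498 to 42439 in young and 15217 to 30285 in old aortae, and of 10 tested, Fosb and Atf3 were lower and Junb higher, with a median log2 fold change of -0.40. The part of these cell types and of handling in the lower levels of Hspb1, Hspb6, Hspb8, Bag3 and Clu was not tested.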

How the data were processed

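RNA of 10 aortae, 1 per mouse, was sequenced from TruSeq Stranded mRNA libraries. The authors trimmed reads with fastp 0.20.0, removed those shorter than 35 bases, aligned them to GRCm38 with STAR 2.7.0f and the GENCODE M22 annotation, and counted them per gene with featureCounts of Subread 1.6.4. The deposited values are these raw counts, whole numbers without normalization. The strand setting and the treatment of reads with several alignments were not given in the sources used here, and the reads themselves were not analysed here.

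The genes and lists were chosen with earlier results of these data known. Groups were taken from the sample titles and ages. Counts that passed filterByExpr, 14614 of 28011 genes with a count, were tested in R 4.3.3 with edgeR 4.0.16 (TMM scaling, robust glmQLFit and glmQLFTest, no covariates), and the Benjamini-Hochberg adjustment covered all of them. The procedure was tested on simulated data. DESeq2 1.42.0 gave the size factors behind the normalized counts and served, with limma-voom (limma 3.58.1), as an alternative test. The design followed the study except for the test, which was DESeq2 there. Other alternatives were the scaling, the low-count filter, a correction for GC content and length, a block for the replicate number, and leaving out each mouse in turn. Leaving out young 1, young 2 and old 2 together was chosen after the data were seen.

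Correlations were computed on log2(normalized count), with all 14400 paired arrangements within groups for the exact two-sided p, and with a pseudocount of 1 in the search for the nearest genes. Positions, lengths and 50-base windows came from GENCODE M21, since M22 was not used here, and 54471 of 55453 symbols matched 1 gene. In all 9 genes, values were described in full. Of each pathway list (other small heat shock genes, BAG family and selective autophagy, heat shock factors and targets, filaments and Z-disc, extracellular chaperones with other secreted proteins and receptors, terminal complement), up to 4 called genes with the smallest p and the most abundant gene were named with values, and of each marker list the sum. Values of Hsf1, Hsf2, Hsf4 and the heart muscle marker Ryr2 were given in addition.

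In the 20 pairs of libraries of 1 group, chi-square per degree of freedom was 8.06 to 58.8, where counting error alone gives about 1. The tests set the difference between ages against the spread between mice of 1 age. With 1 library per mouse, this spread cannot be told apart from that of dissection and library preparation. Counting error alone was at most 4.05% for any detected gene in any library.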

Additional observations from a re-analysis of the deposited data

Results flagged for a closer look

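In each group of 5 mice, a value was marked when its gap to the nearest other mouse, divided by the range of the group, exceeded the critical value of Dixon's test, 0.71, in 44 groups examined. Chance alone marks about 1 in 20 such groups. For Hspb1, old 1 held 8103 normalized counts, above the other 4 old mice, and the gap was 0.752 of the range. Young 2 held a sum of 1620.1 normalized counts of skeletal muscle markers. Old 3 held the highest sums of macrophage markers, 11937, and of lymphocyte markers, 308. Young 1 held a sum of 1646 normalized counts of Schwann cell markers. In old 2, mitochondrial genes took 11.0% of the counts. No explanation of these values was tested.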

How the results depend on the processing

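Hspb6 and Hspb8 stayed called lower in all 20 alternative fits, and Hspb7 was called in none. DESeq2, the test of the study, and limma-voom each called Hspb1, Hspb6, Hspb8, Bag3 and Clu lower. Without the low-count filter, 3 genes were called lower, and Hspb1 at -0.94 (adjusted p = 0.0971) and Bag3 at -0.89 (adjusted p = 0.0825) were lost. In the same fit the adjusted p of Hspb6 and Hspb8 fell, to 0.00036 and 0.00383. Leaving out single mice gave 2 to 6 genes called lower, with log2 fold changes of -1.10 to -0.78 for Hspb1, -1.01 to -0.72 for Bag3, -0.29 to -0.24 for Clu and -0.34 to -0.18 for Cryab. The ratio of Hspb8 to Bag3 ranged from 1.18 to 1.39 and that of Cryab to Hspb2 from 0.857 to 0.933 (old over young). Without young 1, young 2 and old 2, Bag3 was at -0.76 and no longer called, and Hspb2 turned to 0.0074 (adjusted p = 0.963), neither value of Hspb2 being called. Scaling by library size alone left 4 pairs of genes with an adjusted p below 0.05 in place of 14. The causes were not tested. The deviations of mice of the same number had correlations of -0.29, -0.07, 0.10, -0.05 and 0.13 in pairs 1 to 5, and 4 of 10 mice matched their own number best. The labels name no pairing, and so few pairs cannot exclude one. With the replicate block, 2 genes were called lower, with log2 fold changes of -0.88 for Hspb1 (adjusted p = 0.157), -0.84 for Bag3 (0.130) and -0.26 for Clu (0.0833). Neither ratio passed within pairs, where 5 pairs cannot give p below 0.0625. Over all genes, 1676 were called in the fit reported, 2321 with DESeq2, 1261 with the replicate block and 1132 to 2367 without single mice. For Hspb3 the depth allows up to 3 counts per library. Hspb3 gave no value under any alternative.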
